A study of Mus musculus with 11 samples.

Results

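The erythroid genes examined here are Hba-a1, Hba-a2, Hbb-bs, Hbb-bt, Alas2 and Slc4a1, which make up 6 of the 54418 genes in the count table of mouse thymocyte RNA sequencing. They were chosen by name as genes of red blood cells, and were found in the table by matching its Ensembl gene identifiers to gene symbols of the GENCODE annotation of mouse build GRCm38. The study sequenced RNA of thymocytes from 11 young adult mice aged 8 to 12 weeks, with no treatment of the cells, to ask how the loss of the p53 target genes Zmat3, Puma and p21 alters gene expression. The groups were 4 wild-type (wt) mice, 4 Zmat3-/- mice that lack the RNA-binding protein ZMAT3, and 3 Zmat3-/- Puma-/- p21-/- mice (TKO) that also lack the pro-apoptotic protein PUMA (gene Bbc3) and the cell cycle inhibitor p21 (gene Cdkn1a). All mice were on a C57BL/6-WEHI background, the deletions were germline and therefore present in every tissue, and Zmat3 was absent by design from both mutant groups. RNA was taken from thymocytes with no sorting step stated, and how the cells for RNA were prepared from the thymus is not given in the sources used here, so RNA of other cells, red blood cells included, may be present. The labels do not give the sex of the mice.

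Hemoglobin, the oxygen carrier of red blood cells, is a tetramer of 2 alpha and 2 beta globin chains, each of which holds a haem group. Globin transcripts build up during the final divisions of erythroblasts in bone marrow and spleen and persist in reticulocytes, the youngest cells in the circulation, which still carry RNA after losing their nucleus. Thymocytes are not a known site of hemoglobin production, and globin transcripts in bulk tissue RNA are commonly read as a sign of blood in the sample.

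Each pair of globin genes has nearly the same coding sequence. Hba-a1 (ENSMUSG00000069919.7, chr11:32283511-32284465, plus strand) and Hba-a2 (ENSMUSG00000069917.7, chr11:32296489-32297298, plus strand) encode the alpha chain. Hbb-bs (ENSMUSG00000052305.6, chr7:103826534-103828096, minus strand) and Hbb-bt (ENSMUSG00000073940.3, chr7:103812524-103813996, minus strand) encode the beta chain of C57BL/6 mice. The stretches around the differing base are shown because they are all that separates the coding sequences of a pair. They were read 5′ to 3′ from the GENCODE transcripts, with the differing base in capitals, and positions count from 1 at the first base of the coding sequence.

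Hba-a1, coding bases 351 to 411: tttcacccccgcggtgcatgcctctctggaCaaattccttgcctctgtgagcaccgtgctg

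Hba-a2, coding bases 351 to 411: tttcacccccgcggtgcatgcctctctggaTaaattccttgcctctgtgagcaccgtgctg

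Hbb-bs, coding bases 387 to 444: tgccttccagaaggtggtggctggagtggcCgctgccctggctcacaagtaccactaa

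Hbb-bt, coding bases 387 to 444: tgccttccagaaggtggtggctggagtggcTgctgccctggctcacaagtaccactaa

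The alpha pair differed by C381T, in codon 127 of a coding sequence of 429 bases, with the base of Hba-a1 given first. The beta pair differed by C417T, in codon 139 of 444 bases, with the base of Hbb-bs given first. Of all 31-base words in the annotated transcripts of each gene, 92.6% of those of Hba-a2 and 75.5% of those of Hba-a1 also occurred in another gene, compared with 59.4% for Hbb-bt and 54.4% for Hbb-bs. Reads from such words were assigned between genes by the quantifier, so the split within a pair is less certain than the sum of the pair. Alas2 (ENSMUSG00000025270.13, chrX:150547375-150570638, plus strand), which encodes the erythroid form of the enzyme that starts haem synthesis, and Slc4a1 (ENSMUSG00000006574.15, chr11:102348824-102366203, minus strand), which encodes band 3, the anion exchanger of the red cell membrane, shared 0 such words with other genes.

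The members' levels moved together between mice, and for this reason 150 bases upstream of the RefSeq start are shown for one gene of each pair and for Alas2. The sequences are from RefSeq on GRCm38.p6, read 5′ to 3′ on the gene's strand, and capitals mark letters that matched a searched motif. The GENCODE gene models begin inside the Hba-a2 stretch, close to its end, inside the Alas2 stretch and upstream of the Hbb-bs stretch, so parts of the stretches are transcribed in some models.

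Hba-a2, chr11:32296342-32296491, plus strand: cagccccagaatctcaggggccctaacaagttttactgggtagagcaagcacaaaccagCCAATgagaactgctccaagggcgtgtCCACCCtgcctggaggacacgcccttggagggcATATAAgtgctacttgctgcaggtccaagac

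Hbb-bs, chr7:103827929-103828078, minus strand: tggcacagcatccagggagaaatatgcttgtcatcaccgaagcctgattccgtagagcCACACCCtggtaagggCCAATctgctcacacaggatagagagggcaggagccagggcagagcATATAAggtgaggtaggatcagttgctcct

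Alas2, chrX:150547267-150547416, plus strand: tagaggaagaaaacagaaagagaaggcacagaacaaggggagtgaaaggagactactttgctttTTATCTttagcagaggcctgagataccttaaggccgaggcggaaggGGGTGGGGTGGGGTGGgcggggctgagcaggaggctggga

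The motifs searched were CCAAT and the CACCC box on both strands, spelled either CCACCC or with an added base as CACACCC. The TATA box was searched on the gene's strand only, spelled TATAAA in its common form, CATAAA where its first base differs and also ATATAA where shifted by a base. The GATA motif was searched on both strands, spelled AGATAA in its common form, TGATAA where its first base differs, AGATAG where its last base differs and TGATAG where both differ. Hba-a2 held the CACCC letters 64 bases, the CCAAT letters 91 bases and the TATA letters 31 bases before the start, and Hbb-bs held them 92, 76 and 30 bases before it. Alas2 held the GATA letters on the minus strand 86 bases before the start and 3 overlapping CACCC matches on the minus strand, with no CCAAT or TATA letters in the window. Among 32851 promoters of the same length, 24.5% held CCAAT, 23.2% the CACCC letters, 16.0% the GATA letters and 9.80% the TATA letters. These matches describe the letters only.

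Libraries held between 17669715 and 80207003 counts. Levels are given as CPM, the usual scale on which the counts of a gene are divided by the size of its library, with sizes adjusted by the trimmed mean of M values (TMM) method of edgeR, and 3 counts corresponded to between 0.0403 and 0.167 CPM in the different libraries. Intervals and floors based on counts cover counting error only. The libraries of wt 1 and wt 2 stood apart, with median correlations of log2 CPM with the other libraries of 0.921 and 0.945 compared with 0.959 to 0.981 for the other 9. The members' fold changes against wt, the summed globin level and the alpha to beta ratio are therefore also given without them, while the other wt comparisons include them. Zmat3 was present at 9.88, 12.2, 26.8 and 26.8 CPM in the wt mice, at 5.34 to 6.85 CPM in Zmat3-/- mice and at 7.78 to 8.25 CPM in TKO mice. In the edgeR test of Zmat3-/- against wt its log2 fold change was -1.64 (SE 0.350, adjusted p = 0.0789, n = 4 and 4). In the edgeR test of TKO against wt the log2 fold changes were -1.28 for Zmat3, -0.476 for Bbc3 and -1.10 for Cdkn1a. Their adjusted p in that edgeR test were 0.371, 0.400 and 0.444. Cdkn1a reached 3.53 to 10.4 CPM in wt and 2.49 to 3.52 CPM in TKO mice, and Bbc3 16.8 to 20.1 and 12.9 to 15.2 CPM. Markers of thymocytes were abundant in every library, with Rag1 of antigen receptor gene rearrangement at a mean of 4213 CPM, the co-receptor Cd8a at 1765 CPM and Dntt at 1636 CPM.

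All 6 erythroid genes were detected in the thymocyte samples, and they varied far more between mice of 1 genotype than between genotypes. The alpha globin gene Hba-a1 was at 248, 177, 1705 and 439.8 CPM in wt mice 1 to 4. In the Zmat3-/- mice it was at 327, 207, 983 and 521 CPM, and in the TKO mice at 448, 629.9 and 775 CPM. The wt group held both the lowest and the highest mouse, and the other groups lay within its range.

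The second alpha gene, Hba-a2, was at 332, 246, 2631 and 658 CPM in wt mice. It was at 452, 294, 1493 and 749 CPM in Zmat3-/- mice and at 640.1, 894 and 1032 CPM in TKO mice. The mice kept nearly the same order as for Hba-a1, with wt 3 highest and wt 2 lowest, and all 3 groups overlapped.

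Hbb-bs, the more abundant beta gene, was at 418, 384, 3474 and 888 CPM in wt mice. Its levels were 882, 539, 2646 and 1349.8 CPM in Zmat3-/- mice and 1302, 1688 and 1567 CPM in TKO mice. Here wt 1, wt 2 and wt 4 lay below all TKO mice, while wt 3 lay above them. For Hbb-bt, the minor beta gene, the levels were 73.8, 65.3, 649.6 and 161 CPM in wt, 138, 97.7, 504 and 250.1 CPM in Zmat3-/- and 257, 313 and 288 CPM in TKO mice. The pattern was that of Hbb-bs, with overlap between all groups.

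Alas2 was at 7.08, 7.38, 96.8 and 24.9 CPM in wt mice. It was at 19.9, 14.6, 78.0 and 39.2 CPM in Zmat3-/- mice and at 29.2, 45.3 and 57.4 CPM in TKO mice. As for the globin genes, wt 3 and Zmat3-/- 3 were the highest mice of all, and for Alas2 wt 1 and wt 2 were the lowest. Slc4a1 lay close to the detection limit, at 2, 0, 73 and 16 counts in wt, 15, 9, 39 and 15 counts in Zmat3-/- and 35, 12 and 83 counts in TKO mice. These corresponded to 0.0608, 0, 3.03 and 0.615 CPM in wt, 0.350, 0.293, 1.29 and 0.623 CPM in Zmat3-/- and 0.881, 0.667 and 1.12 CPM in TKO mice. The 0 in wt 2 allows a level of up to 0.0745 CPM by counting alone.

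**Figure D1:**
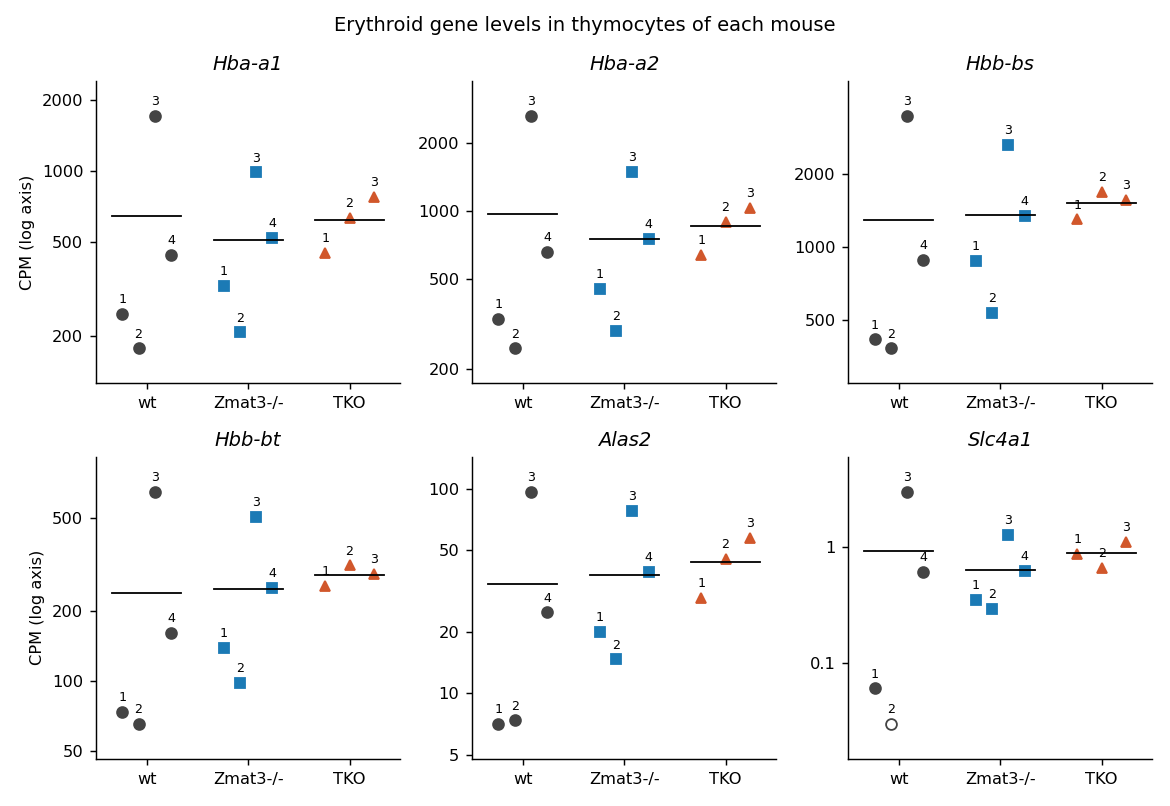
Level of each erythroid gene in CPM (log axis, 1 panel per gene) in wt, Zmat3-/- and TKO thymocytes, with 1 numbered point per mouse, a black line at the group mean and an open symbol for Slc4a1 in wt 2, which had 0 counts and is drawn at the foot of the axis. In every panel wt 3 is the highest point, wt 1 or wt 2 the lowest, and the TKO mice lie between the extremes of wt.

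The group means differed little beside this spread. For Hbb-bs they were 1291 ± 1473 CPM in wt (SD, n = 4), 1354 ± 923 CPM in Zmat3-/- (SD, n = 4) and 1519 ± 198 CPM in TKO mice (SD, n = 3). For Hba-a2 they were 967 ± 1124, 747 ± 532 and 855 ± 199 CPM (SD), and for Alas2 34.0 ± 42.7, 37.9 ± 28.7 and 44.0 ± 14.2 CPM (SD) in the same order. For all 6 genes the ranges of every pair of groups overlapped, whereas groups did not overlap for 12.1% of the tested genes in TKO against wt, 14.1% in Zmat3-/- against wt and 4.92% in TKO against Zmat3-/-.

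The highest wt mouse exceeded the lowest by 9.62-fold for Hba-a1, 10.7-fold for Hba-a2, 9.05-fold for Hbb-bs, 9.95-fold for Hbb-bt and 13.7-fold for Alas2. In Zmat3-/- mice these ratios were 4.75, 5.07, 4.91, 5.16 and 5.33, and in TKO mice 1.73, 1.61, 1.30, 1.22 and 1.97. The difference in spread between groups of 4 and 3 mice was not tested. Over all 11 mice the SD of log2 CPM was 0.991 for Hba-a1, 1.03 for Hba-a2 and Hbb-bs, 1.08 for Hbb-bt, 1.26 for Alas2 and 1.62 for Slc4a1, compared with a median of 0.311 over the genes ranked. The part of this variance that lay between genotypes was 4.02 to 15.3% for the 6 genes, and the median over all genes was 21.3%.

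Levels per kilobase of transcript ranked the genes in 1 order in all 11 mice. Hbb-bs came first at 2191 ± 1531 CPM per kb (SD, n = 11), followed by Hba-a2 at 1546 ± 1252 and Hba-a1 at 840.3 ± 637 CPM per kb. Hbb-bt followed at 362 ± 262, Alas2 at 18.7 ± 14.3 and Slc4a1 at 0.178 ± 0.185 CPM per kb. Neighbouring globin genes overlapped in their spread over mice, although the order held within each mouse, and the order within a pair depends on how shared reads were assigned.

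The first comparison asked whether the erythroid genes differed between thymocytes that lack all 3 p53 targets and wt thymocytes. They did not pass the test in either direction. A call required an adjusted p under 0.05 and an absolute log2 fold change above 1.5 in the quasi-likelihood test of edgeR, and 0.241% of the 13275 genes tested met it. Of the 6 members 5 were tested, 0 were called and 0 had an unadjusted p under 0.05, a level that 10.3% of the tested genes reached. Slc4a1 was under the count minimum.

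In TKO against wt thymocytes the edgeR log2 fold changes were -0.11 for Hba-a1 (SE 0.742), -0.23 for Hba-a2 (SE 0.780), 0.19 for Hbb-bs (SE 0.754), 0.23 for Hbb-bt (SE 0.770) and 0.31 for Alas2 (SE 0.877), with adjusted p of 0.898 to 0.957. Their median was 0.19, compared with -0.038 over all genes tested. The 95% intervals were wide, and that of Alas2 ran from 0.303-fold to 5.07-fold, so these mice cannot exclude changes larger than the threshold of the test. Means of log2 CPM, which weight the low wt mice more, were higher in TKO for all 6 genes, by 0.45 for Hba-a2 up to 1.43 for Slc4a1. With log2 CPM compared mouse by mouse, an exact permutation test (two-sided) gave p of 0.343 to 0.629 for the 6 genes, where the smallest p that 3 against 4 mice allow is 0.0571 and 0.05 cannot be reached. Without wt 1 and wt 2 the fitted changes were all below 0, from -1.0 to -0.53, with adjusted p of 0.195 to 0.480 in edgeR. For Hbb-bs, Hbb-bt and Alas2 the direction thus depended on these libraries.

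The second comparison, Zmat3-/- against wt, asked what loss of Zmat3 alone altered. Again 0 of the 5 tested members were called, beside 0.319% of 13480 genes, and 0 had an unadjusted p under 0.05, beside 16.1% of all genes. The edgeR log2 fold changes were -0.34 for Hba-a1 (SE 0.763), -0.38 for Hba-a2 (SE 0.803), 0.064 for Hbb-bs (SE 0.780), 0.055 for Hbb-bt (SE 0.811) and 0.15 for Alas2 (SE 0.893), with adjusted p of 0.831 to 0.976. The median of the members was 0.055 and that of all tested genes -0.026. The exact permutation p (two-sided) was 0.514 to 1 for the 6 genes, with 0.0286 the smallest that 4 against 4 mice allow. Without wt 1 and wt 2 the log2 fold changes in edgeR fell to between -1.15 and -0.70, with adjusted p of 0.154 to 0.403.

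TKO and Zmat3-/- thymocytes, which differ by the added loss of Puma and p21, gave the narrowest estimates. The log2 fold changes in edgeR lay between 0.12 for Hbb-bs and 0.22 for Hba-a1 (SE 0.416 to 0.471, adjusted p = 0.983 to 0.986), and 0 of 5 tested members were called beside 0.122% of 13132 genes. None of the 5 had an unadjusted p under 0.05, beside 4.5% of all genes. The 95% intervals of all 5 lay between -0.89 and 1.20 on the log2 scale and excluded a change of 1.5 in either direction. The exact permutation p (two-sided) was 0.343 to 0.571. These mutant groups were each also compared with the same wt mice, so the 3 comparisons are not independent.

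Slc4a1 could be fitted by edgeR only without the count minimum, where its log2 fold change was -0.018 in TKO against wt (SE 1.08, adjusted p = 0.996), -0.51 in Zmat3-/- against wt (SE 1.13, adjusted p = 0.857) and 0.46 in TKO against Zmat3-/- (SE 0.463, adjusted p = 0.854). Summing the counts of each pair removed the uncertain split, and gave log2 fold changes of -0.18, -0.36 and 0.17 for alpha globin and of 0.20, 0.062 and 0.13 for beta globin in the same 3 comparisons.

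**Figure D2:**
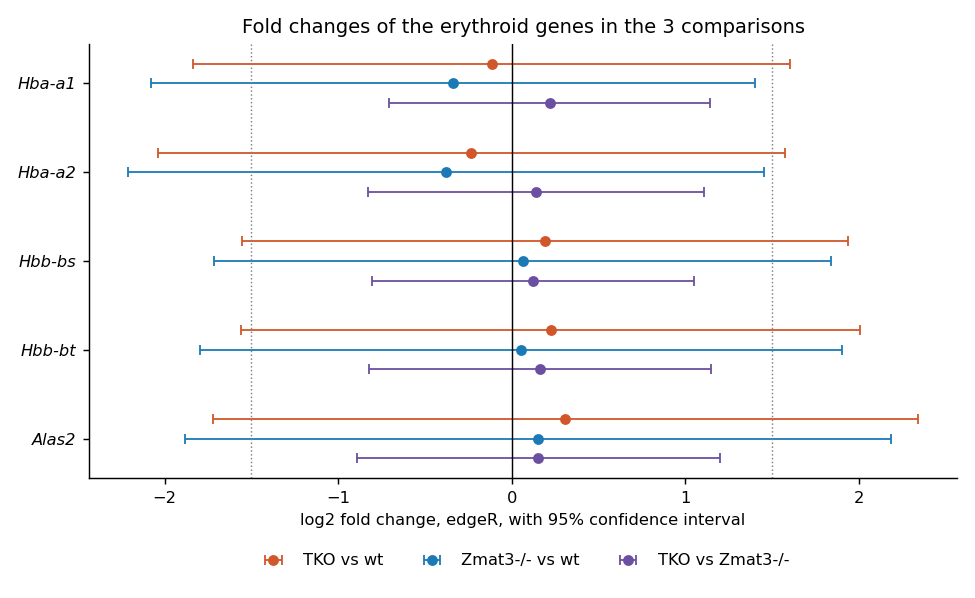
Log2 fold change fitted by edgeR (horizontal axis) of the 5 tested erythroid genes in TKO against wt, Zmat3-/- against wt and TKO against Zmat3-/-, with points at the estimate, bars for the 95% interval and dotted lines at the threshold of 1.5 in each direction. Every interval spans 0, and only those of TKO against Zmat3-/- stay inside the dotted lines.

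The 4 adult globin genes together made up 1072, 873, 8460 and 2147 CPM in wt mice. In Zmat3-/- mice their sum was 1798, 1138, 5626 and 2869 CPM, and in TKO mice 2647, 3525 and 3662 CPM. As a share of all counts this ran from 0.0889% in wt 2 (95% Wilson interval 0.0880 to 0.0899%) to 0.911% in wt 3 (0.908 to 0.915%). The highest mouse exceeded the lowest by 9.70-fold in wt, 4.95-fold in Zmat3-/- and 1.38-fold in TKO mice, so wt 3 alone set much of the wt mean of 3138 ± 3592 CPM (SD, n = 4). The means of Zmat3-/- and TKO mice were 2858 ± 1979 (SD, n = 4) and 3278 ± 551 CPM (SD, n = 3). The mean log2 sum was 0.68 higher in TKO and 0.24 higher in Zmat3-/- than in wt mice, and without wt 1 and wt 2 these differences were -0.39 and -0.83. In bulk RNA, fewer erythroid cells and less RNA per cell cannot be told apart.

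Globin levels also differed with Xist, the RNA made from the inactive X chromosome. Xist was at 505 to 1485 CPM in 5 mice (wt 1, wt 2, Zmat3-/- 1, Zmat3-/- 2 and TKO 1) and at 0.806 to 2.54 CPM in the other 6. The summed globin level was 873 to 2647 CPM in the former and 2147 to 8460 CPM in the latter. Within each genotype every mouse with high Xist had less globin RNA than every mouse with low Xist. Among mice with high Xist the sum was 873 to 1072 CPM in wt, 1138 to 1798 CPM in Zmat3-/- and 2647 CPM in the single TKO mouse. Among mice with low Xist it was 2147 to 8460, 2869 to 5626 and 3525 to 3662 CPM, and the groups overlapped. This relation was noticed after the values were seen, its groups hold 1 or 2 mice per genotype, and wt 1 and wt 2 are the same libraries that stood apart. Its part in the comparisons was examined only by a fit with Xist as a covariate, in which the members' log2 fold changes were 0.063 to 0.72 in TKO against wt and -0.065 to 0.60 in Zmat3-/- against wt, with edgeR adjusted p of 0.512 to 0.972.

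**Figure D3:**
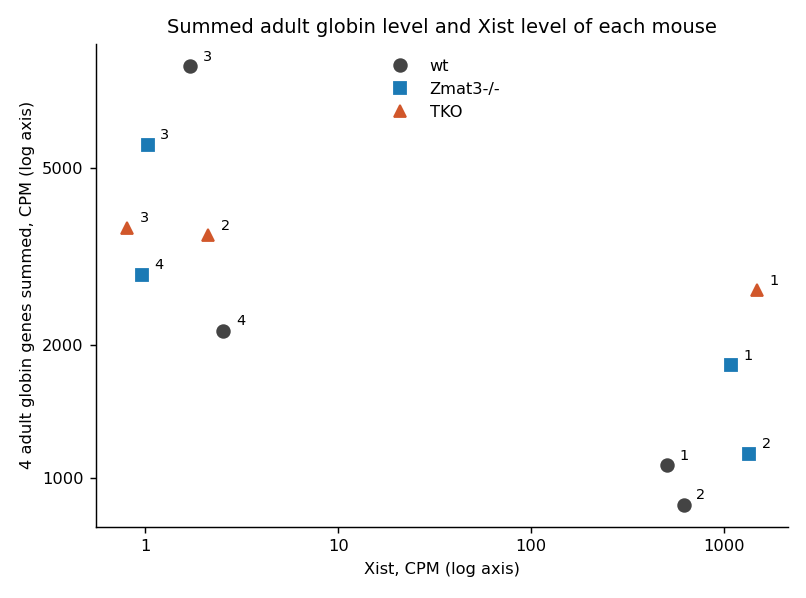
Summed level of the 4 adult globin genes (vertical axis) against the level of Xist (horizontal axis), both in CPM on log axes, with 1 point per mouse and colour and shape by genotype. The 5 mice with Xist at 505 CPM or more reach 2647 CPM of globin at most, and the 6 with Xist at 2.54 CPM or less start at 2147 CPM.

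The 6 genes rose and fell together from mouse to mouse. Over the 11 mice the log2 CPM of Hbb-bs correlated with that of Hbb-bt at Pearson r = 0.998 and Spearman rho = 0.991, with Alas2 at r = 0.983 and rho = 0.982, and with Hba-a2 at r = 0.972 and rho = 0.973. The values were r = 0.970 and rho = 0.982 for Hba-a1 and r = 0.935 and rho = 0.955 for Slc4a1. For all 5 relations a two-sided permutation test gave p of 1e-05 to 2e-05 for r and at most 8e-05 for rho, with 1e-05 the smallest that its 100000 resamples can give. Adjusted over the 5 relations by the Benjamini-Hochberg method, the permutation p was 1.25e-05 to 2e-05 for r and 1.67e-05 to 8e-05 for rho. Leaving out the 2 mice farthest from the median of Hbb-bs, which were wt 1 and wt 2, gave r of 0.973 for Hba-a1, 0.972 for Hba-a2, 0.995 for Hbb-bt, 0.975 for Alas2 and 0.921 for Slc4a1. With the genotype means removed r was 0.926 to 0.998. Both genes of a point come from 1 library and share its depth and, within a globin pair, its ambiguous reads, whereas Alas2 and Slc4a1 share no sequence with the globin genes.

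**Figure D4:**
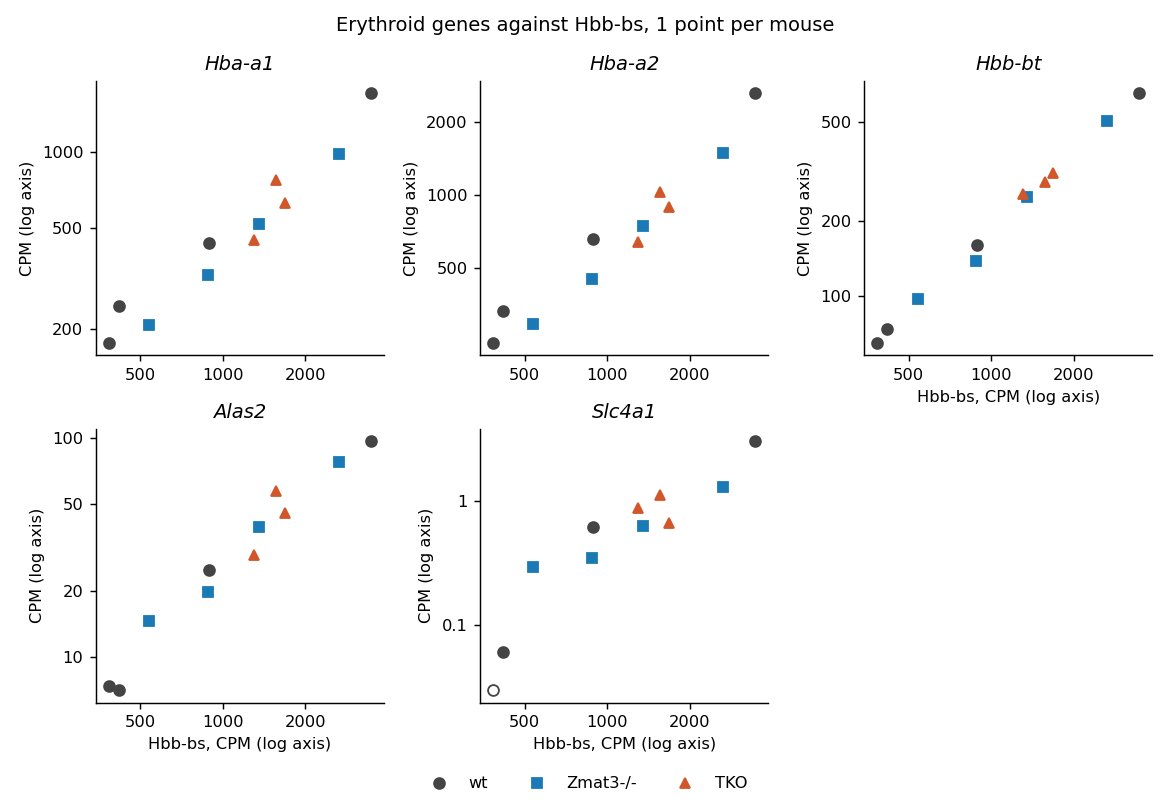
Level of Hba-a1, Hba-a2, Hbb-bt, Alas2 and Slc4a1 (vertical axes) against Hbb-bs (horizontal axis), in CPM on log axes, with 1 point per mouse, colour and shape by genotype and an open symbol for the 0 of Slc4a1 in wt 2. In each panel the 11 mice lie close to 1 rising line. In the Hba-a1 and Hba-a2 panels the wt mice lie higher, relative to Hbb-bs, than the Zmat3-/- mice.

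A few other genes had a pattern like the summed globin level over the 11 mice. Of the 13475 genes ranked that are no members, 48, or 0.356%, had a Pearson r of log2 CPM above 0.8. Among those with the highest r were Gm45838 (r = 0.925) and Aldh1a1 (r = 0.910), a retinal dehydrogenase, and Zfp770, C2cd2, Gm47459, Gm43362 and Rsg1 followed with r of 0.895, 0.884, 0.880, 0.868 and 0.864. Gm45838 and Aldh1a1 were also among the leading genes when genotype means were removed, with r of 0.953 and 0.928. Without wt 1 and wt 2 their r was 0.899 and 0.886. By Spearman's rho only 1 of the 8 genes with the highest Pearson r remained among the first 8, so the choice of genes depends on the measure.

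The proportion of alpha to beta globin transcripts was lower in every Zmat3-/- mouse than in every wt mouse, whereas the summed level overlapped between these groups. The ratio of summed alpha to summed beta CPM was 1.18, 0.942, 1.05 and 1.05 in wt mice, 0.763, 0.788, 0.786 and 0.793 in Zmat3-/- mice and 0.698, 0.761 and 0.975 in TKO mice. All wt values lay above all Zmat3-/- values, while TKO 3 lay within the wt range. Among single genes tested, 14.1% had wt and Zmat3-/- groups that did not overlap. The means were 1.06 ± 0.0972 in wt (SD, n = 4), 0.783 ± 0.0132 in Zmat3-/- (SD, n = 4) and 0.811 ± 0.145 in TKO mice (SD, n = 3), with differences from wt of -0.273 and -0.244. These differences were -0.267 and -0.238 without wt 1 and wt 2, and leaving out single mice moved them between -0.310 and -0.231 and between -0.325 and -0.187. In Zmat3-/- mice the ratio was 0.763 to 0.788 with high Xist and 0.786 to 0.793 with low Xist. No test was planned for this ratio, which was chosen as a description, and none was run.

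Within the pairs the split was stable across mice. Hba-a1 contributed 39.3 to 42.9% of alpha globin CPM, and Hbb-bt 13.5 to 16.5% of beta globin CPM. The haem enzyme gene Alas2 amounted to 0.661 to 1.57% of the summed globin CPM, with means of 0.952% in wt, 1.29% in Zmat3-/- and 1.32% in TKO mice.

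**Figure D5:**
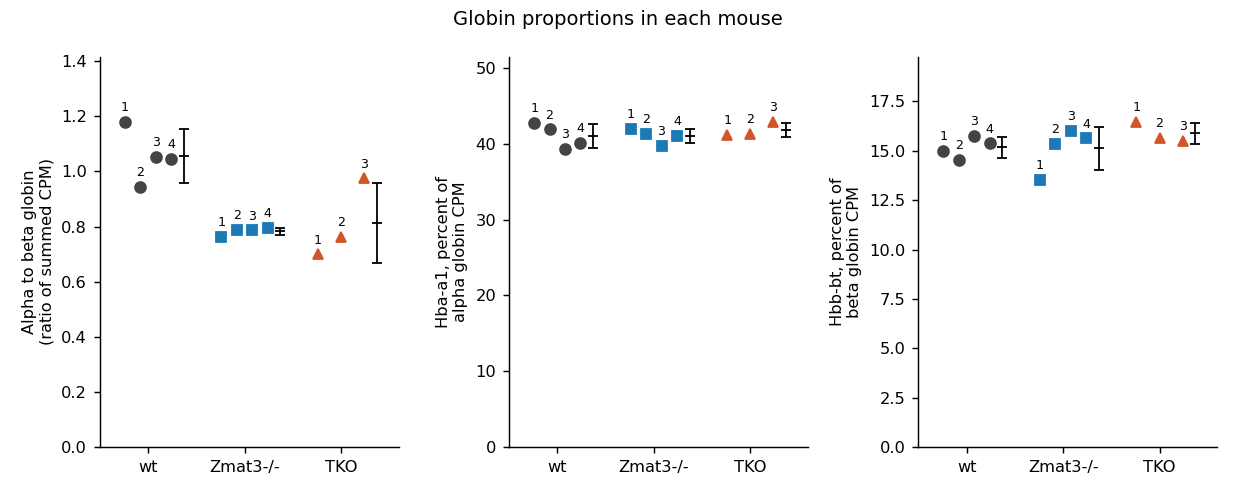
Ratio of alpha to beta globin CPM, percent of alpha globin CPM from Hba-a1 and percent of beta globin CPM from Hbb-bt (vertical axes) in wt, Zmat3-/- and TKO mice, with 1 point per mouse and bars for mean ± SD. The 4 Zmat3-/- mice lie between 0.763 and 0.793 in the first panel, below all 4 wt mice.

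Most other genes of the red cell programme that were ranked had an r of at most 0.8 with the summed globin level. Of 70 such genes in the table, 45 were ranked, and their median r with the summed globin level was -0.340, compared with -0.0522 for all ranked genes. An r above 0.8 was reached by the mitochondrial iron importer gene Slc25a37 (r = 0.843) and by Fech (r = 0.801), which encodes the last enzyme of haem synthesis and which, like Slc25a37, was named after its values were seen. The remaining globin genes, which serve embryonic and minor chains, had 7 genes in the table, of which 0 were tested. Their sum was 0.115 to 0.622 CPM, Hbb-y was at 0 in 7 mice, Hbb-bh1 in 9 and Hbb-bh2 in 10, and Hbb-bh0 had 0 counts in all 11.

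Of the genes known from nucleated red cell precursors, 4 that were at low levels are given here, chosen after their values were seen. Klf1, the transcription factor that activates adult beta globin, was at 0 to 0.296 CPM with 2 mice at 0. Gata1, the main erythroid GATA factor, was at 0.664 to 3.49 CPM, above the counting floor in every mouse, the erythropoietin receptor gene Epor at 0.0415 to 0.760 CPM, and Rhag was at 0 in 9 of 11 mice. Others of the same lists were also low, such as Tal1 at 0 to 0.199 and Gfi1b at 0 to 0.365 CPM. Higher were, among others, Tfrc at 72.8 to 142, Zfpm1 at 32.5 to 65.6 and Lmo2 at 2.90 to 8.53 CPM. These 4 genes therefore do not measure the number of precursors.

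None of the red cell, haem or iron genes outside the members was called in any comparison. The haem synthesis list (12 of 12 genes tested), which thymocytes also use, summed to 460 to 561 CPM in all mice, with means of 517 ± 36.6 CPM in wt (SD, n = 4), 490 ± 30.1 CPM in Zmat3-/- (SD, n = 4) and 518 ± 37.0 CPM in TKO mice (SD, n = 3). Its most abundant genes were Slc25a37 at 247, Urod at 50.9 and Ppox at 45.6 CPM. Red cell enzymes (10 of 11 tested) were led by Ucp2 at 593, Bnip3l at 175 and Prdx2 at 147 CPM, and membrane genes (5 of 17 tested) by Epb41 at 371, Slc14a1 at 22.2 and Gypc at 20.9 CPM. The transcription factor list (9 of 12 tested) was led by Myb at 989, Ldb1 at 430 and Klf3 at 229.9 CPM, which are also used in other blood cells. Iron genes (6 of 8 tested) were led by the ferritin genes Ftl1 at 936 and Fth1 at 522 CPM, with Ireb2 at 148 CPM. Of the genes that repress globin or degrade haem (4 of 4 tested), Bach1 was at 207, Eif2ak1 at 61.7 and Blvra at 19.3 CPM.

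Marker lists of the other cells that blood or thymic tissue could bring had median r below 0 with the summed globin level. An r above 0.8 with the summed globin level was reached by 0 of the ranked platelet markers (5 genes, median r = -0.353), neutrophil markers (8 genes, -0.493), macrophage markers (13 genes, -0.454), B cell markers (10 genes, -0.534) and endothelial markers (5 genes, -0.379). The same held for 12 thymocyte markers, with a median of -0.232 and Rag1 highest at 0.736. Over all ranked genes outside the members 0.356% reached this level and the median was -0.0522, so counts of 0 in short lists say little. These correlations include wt 1 and wt 2, in which Rag1 was lowest at 1603 and 2243 CPM, and are not given without them. Over the 11 mice the platelet list summed to 33.2 to 44.1 CPM, most of it the integrin Itgb3 at 30.5 CPM, with Itga2b at 2.15 and Clec1b at 1.49 CPM. Neutrophil genes summed to 5.59 to 43.6 CPM (S100a9 8.31, S100a8 4.64, Ngp 2.66 CPM), macrophage genes to 133 to 376 CPM (Vcam1 46.6, C1qa 43.6, C1qc 42.4 CPM), B cell genes to 529 to 1008 CPM (Ighm 488, Igkc 60.6, Cd79b 24.9 CPM) and endothelial genes to 101 to 147 CPM (Pecam1 120.2, Egfl7 2.19, Plvap 1.47 CPM). No gene of these marker lists was called in any of the 3 comparisons.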

How the data were processed

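RNA of 11 mouse thymocyte samples was sequenced by the authors, who quantified transcripts with Salmon against GRCm38.p6 in the nf-core/rnaseq workflow and deposited estimated counts per gene for all mice in 1 table. All 598598 values are whole numbers. The submitters' processing notes also name bcl2fastq and DESeq2 1.40.0. Gene symbols were taken from GENCODE M21, which matched 54166 of 54418 identifiers and left 252 without a symbol. Genes entered a test if they reached 20 counts, scaled to the smallest library, in a number of mice equal to the size of the smaller group. As in the study, the tests left out Xist, rRNA, chromosome Y and immunoglobulin genes that are non-coding.

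Each pair of genotypes was fitted with the quasi-likelihood test of edgeR 4.0.16 (R 4.3.3, TMM normalisation), with Benjamini-Hochberg adjustment over all genes tested. A call required an adjusted p under 0.05 and an absolute log2 fold change above 1.5. Log2 CPM used a prior count of 2. Single genes were compared by exact permutation tests in scipy 1.17.1. Alternatives used DESeq2 1.42.0 and sva 3.50.0 (1 surrogate variable). The study adjusted for sex, which the labels do not give, and the level of Xist took its place in 1 alternative. The count test was checked on simulated data with known changes. Total counts ranged from 17669715 to 80207003, and p-values measure the spread between the mice of a group, each of which gave 1 library.

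The members and gene lists were chosen with earlier results of these data known. Named were all members, called genes of the red cell, haem, iron and globin lists, the 3 genes of each list with the highest mean CPM, the targeted genes, the 8 genes most like the summed globin level and the 3 most like it with genotype means removed. Some genes that this rule names are not reported here. Ahsp and Rhce had no matching entry. Genes named outside this rule were chosen after their values were seen, among them precursor genes, further globin genes, Xist and Fech.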

Additional observations from a re-analysis of the deposited data

Results flagged for a closer look

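In groups of 4 mice, the gap between the highest or lowest mouse and the nearest other mouse was set against the range of the group for the 6 members, the globin sum, its ratios and shares, the genes most like it and the summed marker lists of other cells. Of 112 gaps in 56 groups, 4 were larger than Dixon's 95% critical value, and chance alone marks about 1 in 20 groups. For Hbb-bs in wt mice, wt 3 was separated by a gap of 0.837 of the range, at 3474 CPM against 888 CPM in wt 4. The gap of wt 3 was 0.836 of the range for Hbb-bt and 0.832 for the summed adult globin level, which are largely the same counts and so are not separate events. For Gm45838, a predicted gene whose level followed globin, the highest Zmat3-/- mouse was separated by a gap of 0.896 of the range.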

How the results depend on the processing

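Members called stayed at 0 in all 3 comparisons under every alternative run, and the lowest adjusted p of any member was 0.154 (Hba-a2, Zmat3-/- against wt without wt 1 and wt 2, a choice made after seeing the data, as were the alternatives for the alpha to beta ratio). Numbers of genes called moved from 32 in TKO against wt to 103 with DESeq2, 51 with no count minimum, 68 with all 3 genotypes in 1 fit, 154 with 1 surrogate variable and 245 without wt 1 and wt 2, and lay between 15 and 35 when single mice were left out. In Zmat3-/- against wt they moved from 43 to 122 with DESeq2, 72 with all 3 genotypes in 1 fit, 213 with 1 surrogate variable and 439 without wt 1 and wt 2, and lay between 12 and 47 when single mice were left out. Leaving out any TKO mouse in the first comparison, and wt 3, wt 4 or any Zmat3-/- mouse in the second, lowered the number by over 1.5 times. In TKO against Zmat3-/- they moved from 16 to 45 with no count minimum, and 14 to 18 when single mice were left out. The summed globin difference of TKO against wt was -0.39 without wt 1 and wt 2, and 1 of the 8 genes most like globin remained by Spearman's rho.

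The labels do not say whether the replicate numbers pair the mice. Deviations from genotype means of same-numbered mice correlated at -0.0038 to 0.386 over 13522 genes, which cannot decide it. In fits that take the replicate number as a block, genes called were 16 in TKO against wt, 8 in Zmat3-/- against wt and 16 in TKO against Zmat3-/-, and no member was called. The members' log2 fold changes ran from 0.51 to 1.33 (SE 0.628 to 0.776) in TKO against wt, from 0.027 to 0.70 (SE 0.228 to 0.299) in Zmat3-/- against wt and from 0.45 to 0.56 (SE 0.358 to 0.459) in TKO against Zmat3-/-, with adjusted p of 0.337 to 0.957 in edgeR. Those of Hba-a1 and Hba-a2 turned to 0.52 and 0.51 in TKO against wt and to 0.027 and 0.028 in Zmat3-/- against wt.

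Directions of the members' log2 fold changes, all within their errors, turned in 44 of 285 other fits. With Xist as covariate Hba-a1 and Hba-a2 were 0.12 and 0.063 in TKO against wt. Without wt 1 and wt 2, Hbb-bs, Hbb-bt and Alas2 were -0.57, -0.55 and -0.53 in TKO against wt and -0.70, -0.73 and -0.70 in Zmat3-/- against wt. Leaving out single mice gave ranges of -0.43 to 1.04 (Hba-a1), -0.55 to 0.99 (Hba-a2), -0.11 to 1.38 (Hbb-bs), -0.089 to 1.47 (Hbb-bt) and -0.028 to 1.68 (Alas2) in TKO against wt. The same ranges were -0.88 to 0.82, -0.96 to 0.86, -0.49 to 1.27, -0.56 to 1.31 and -0.47 to 1.54 in Zmat3-/- against wt, and -0.043 to 0.76, -0.13 to 0.73, -0.14 to 0.68, -0.10 to 0.78 and -0.12 to 0.79 in TKO against Zmat3-/-. The highest values in the wt comparisons came without wt 3. The causes of these shifts were not tested. Depth limits Slc4a1 most, at 0 to 83 counts.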
